A study of Mus musculus with 12 samples.

Results

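The genes described are the 10 that carry out or control the oxidation of the branched-chain amino acids leucine, isoleucine and valine after their nitrogen has been removed: Bckdha, Bckdhb, Dbt, Dld, Bckdk, Ppm1k, Ivd, Mccc1, Mccc2 and Hibadh. They were taken by symbol from a table of 24475 genes, and all 10 were found and were above the filter on low values. The libraries were made from polyadenylated RNA of fed mouse liver, 6 for wild-type animals (WT) and 6 for animals in which Gcg is knocked out (Gcg KO). Gcg encodes the precursor of glucagon, a pancreatic hormone that acts on the liver. The labels name no strain, sex, age, batch or other allele for either group, and do not say whether the libraries came from separate animals. The p-values therefore reflect the spread of these 12 libraries alone, and that spread may be technical. The comparison asks how these genes differ between WT and Gcg KO, as a contrast to amino acids that are broken down mainly in liver.

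Branched-chain amino acids differ from most others in where they are degraded. Their nitrogen is removed by the aminotransferases Bcat1 and Bcat2, mostly outside the liver, and the keto acids that result are decarboxylated by the mitochondrial branched-chain ketoacid dehydrogenase (BCKDH) complex, which liver holds in quantity. The complex is built from a decarboxylase (Bckdha and Bckdhb), a lipoate-bearing acyltransferase core (Dbt) and a dihydrolipoyl dehydrogenase shared with other complexes (Dld). It is switched off when the kinase Bckdk phosphorylates Bckdha and switched on again when the phosphatase Ppm1k removes that phosphate. Its products then enter separate routes, in which Ivd and the carboxylase of Mccc1 and Mccc2 serve leucine and Hibadh serves valine.

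None of the 10 genes passed the test between genotypes. Across all 11347 tested genes, 439 passed, which is 3.87%, with 1.95% higher and 1.92% lower in Gcg KO, so that 0 of 10 in either direction does not set these genes apart from the rest. The test was limma on log2(RPKM + 0.5), where RPKM is a read count scaled to transcript length and sequencing depth, with Benjamini-Hochberg adjustment over every tested gene and calls made at 0.05. Without adjustment Bckdhb, Dbt and Ivd (3 of 10) had p under 0.05, all with lower estimates in Gcg KO, against 6.96% of tested genes that did so in that direction. Over all 12 libraries the groups overlapped for all 10 genes, while 3.09% of tested genes had groups that did not. Estimates were below 0 for 9 of the 10 genes, with a median log2 fold change of -0.11 and a range of -0.27 to 0.03, while over all tested genes 5186 of 11347 estimates were below 0 and the median was 0.01. The 95% interval lay within 1.5-fold in both directions for 10 of 10 genes, and this held for 84.6% of all tested genes. Without the 3 libraries described next as standing apart, 10 of 10 estimates were below 0 (53.3% of 11284 tested genes), with a median of -0.16. Mccc1 and Mccc2 then joined the genes with an unadjusted p under 0.05, making 5 of 10, all lower, where 8.73% of tested genes did so in that direction, and the interval of Ppm1k no longer lay within 1.5-fold. The groups of Bckdhb and Ivd, at 5 WT and 4 Gcg KO libraries, then no longer overlapped. Smaller groups separate more easily, so the 3.09% found over 12 libraries is no measure for this. How many of all tested genes behaved alike was not counted, and no conclusion is drawn from it.

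Each library held an estimated 10300000 to 15000000 reads. Hepatocyte markers summed to 47596 to 63443 RPKM, adipocyte markers to at most 0.330 RPKM with Lep at 0 in all libraries, and muscle markers to at most 1.998 RPKM. Among the marker lists, Lyve1 of endothelial cells rose (adjusted p = 0.0125) and Cela1 of exocrine pancreas fell (adjusted p = 0.0179), while Cpa1, Pnlip and Prss2 of exocrine pancreas were at 0 in all libraries. Gcg itself was listed at 0 in all 12 libraries, WT included, and checked no label in this tissue. The libraries WT 6, Gcg KO 10 and Gcg KO 12 stood apart on the first principal component, which held 27.9% of the variance, at 16.99 to 28.8 against at most 6.99 in the other 9. Neutrophil markers summed to 1.94 to 2.75 RPKM in those 3 libraries and to 17.3 to 65.6 RPKM in the other 9. Igfbp1, which encodes a secreted protein that binds insulin-like growth factors, was at 6.22, 14.2 and 9.35 RPKM in those 3 and at 159 to 738 RPKM in the other 9. Estimates without these 3 libraries are given for some genes only, and those of other genes also moved. In bulk RNA, fewer cells of a type and less RNA per cell cannot be told apart.

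Promoter sequence is shown for Ivd, Mccc2 and Hibadh because these 3 genes were chosen for their pairwise correlation over all 12 libraries (r of 0.83 to 0.91), which was weaker without the 3 libraries that stood apart and did not then pass adjustment. The sequences are from RefSeq (GRCm38.p6), run 5′ to 3′ on the strand of the gene and end at the base before its annotated start. Capitals mark CCAAT or its reverse complement ATTGG, the motif read by the factor NF-Y. Ivd is shown from chr2:118861744-118861958 on the plus strand, where 215 bases of the RefSeq window lie before the gene and overlap the non-coding gene Gm39913, Mccc2 from chr13:100015640-100015889 on the minus strand and Hibadh from chr6:52640301-52640550 on the minus strand.
Ivd: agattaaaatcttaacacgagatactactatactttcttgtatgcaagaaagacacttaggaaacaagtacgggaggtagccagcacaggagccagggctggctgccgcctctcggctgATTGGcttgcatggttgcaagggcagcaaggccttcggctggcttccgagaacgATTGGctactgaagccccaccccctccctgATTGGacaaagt
Mccc2: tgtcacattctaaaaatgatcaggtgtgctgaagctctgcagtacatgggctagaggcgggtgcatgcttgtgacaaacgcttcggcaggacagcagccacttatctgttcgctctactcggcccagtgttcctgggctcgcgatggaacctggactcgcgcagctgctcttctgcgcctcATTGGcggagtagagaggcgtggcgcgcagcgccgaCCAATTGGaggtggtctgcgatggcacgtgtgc
Hibadh: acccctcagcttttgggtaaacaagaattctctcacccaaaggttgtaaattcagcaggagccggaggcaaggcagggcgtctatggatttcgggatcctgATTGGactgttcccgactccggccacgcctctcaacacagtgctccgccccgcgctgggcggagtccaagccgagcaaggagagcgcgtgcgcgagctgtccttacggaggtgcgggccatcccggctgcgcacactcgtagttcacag

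The Ivd stretch holds 3 copies of the motif, at 96, 42 and 12 bases from the start (from the motif's outer base). The Mccc2 stretch also holds 3, of which 2 overlap in a palindrome, and the Hibadh stretch holds 1, at 149 bases. Over windows from 250 bases before to 50 bases after the start, CCAAT or ATTGG was found in 8 of the 9 member genes that had a window (not in that of Bckdha; no window was read for Dbt), against 37.4% of 32851 windows of all genes and 37.8% of the windows of tested genes. The cyclic AMP response element TGACGTCA, the same on both strands and the target of a factor that acts downstream of the glucagon receptor, was found in 0 of the 9 genes, in 1.79% of all windows and in 2.97% of those of tested genes. Its shorter form TGACG, or CGTCA on the other strand, was found for 2 of the 9, Dld and Ppm1k, in 20.8% of all windows and in 30.9% of those of tested genes. The CCAAT motif was chosen after the windows had been seen, a letter match is not a binding site, and these windows were not compared with expression.

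The subunits of the BCKDH complex were all expressed well above the filter. Bckdha (Entrez 12039, chr7:25629852-25658782, GRCm38), which encodes the decarboxylase alpha subunit that carries the regulatory phosphate, ranged from 94.4 to 113 RPKM with a median of 104 in WT and from 89.7 to 108 with a median of 97.3 in Gcg KO. The groups overlapped, but 5 of 6 Gcg KO libraries lay below the WT median and 3 of them below the lowest WT library. Means were 104 ± 6.86 RPKM (WT) and 97.7 ± 7.20 RPKM (Gcg KO; SD, n = 6 each). The log2 fold change was -0.10 ± 0.06 (SE; adjusted p = 0.531), and the interval reached a value 1.176-fold lower.

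Bckdhb (Entrez 12040, chr9:83925111-84124240), the decarboxylase beta subunit, ranged from 35.8 to 41.9 RPKM with a median of 39.1 in WT and from 31.2 to 38.0 with a median of 34.5 in Gcg KO. All 6 Gcg KO libraries lay below the WT median and 5 of them below the lowest WT library, Gcg KO 10 being the exception. Means were 38.8 ± 2.34 RPKM (WT) and 34.6 ± 2.29 RPKM (Gcg KO), a log2 fold change of -0.16 ± 0.06 that did not pass the test (adjusted p = 0.183).

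Dbt (Entrez 13171, chr3:116513070-116549981), the acyltransferase core of the complex, had the largest estimated log2 difference among the 10 genes. It ranged from 21.1 to 32.2 RPKM with a median of 29.0 in WT and from 20.5 to 26.2 with a median of 22.4 in Gcg KO. All 6 Gcg KO libraries were below the WT median, but WT 1, at 21.1 RPKM, lay among them. The log2 fold change was -0.27 ± 0.10 (adjusted p = 0.190), with an interval that reached a value 1.40-fold lower. Without WT 1 the estimate was -0.34 with an adjusted p of 0.0503, still short of the threshold, which was the lowest adjusted p for Dbt over its 22 alternative settings. A pseudogene, Gm4596, lies within the gene.

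Dld (Entrez 13382, chr12:31331562-31351471), the dehydrogenase that reoxidises lipoate in this and related complexes, ranged from 42.3 to 55.8 RPKM with a median of 48.3 in WT and from 39.2 to 51.6 with a median of 44.1 in Gcg KO. The ranges overlapped over most of their width, and the log2 fold change was -0.12 ± 0.08 (adjusted p = 0.512).

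**Figure D1:**
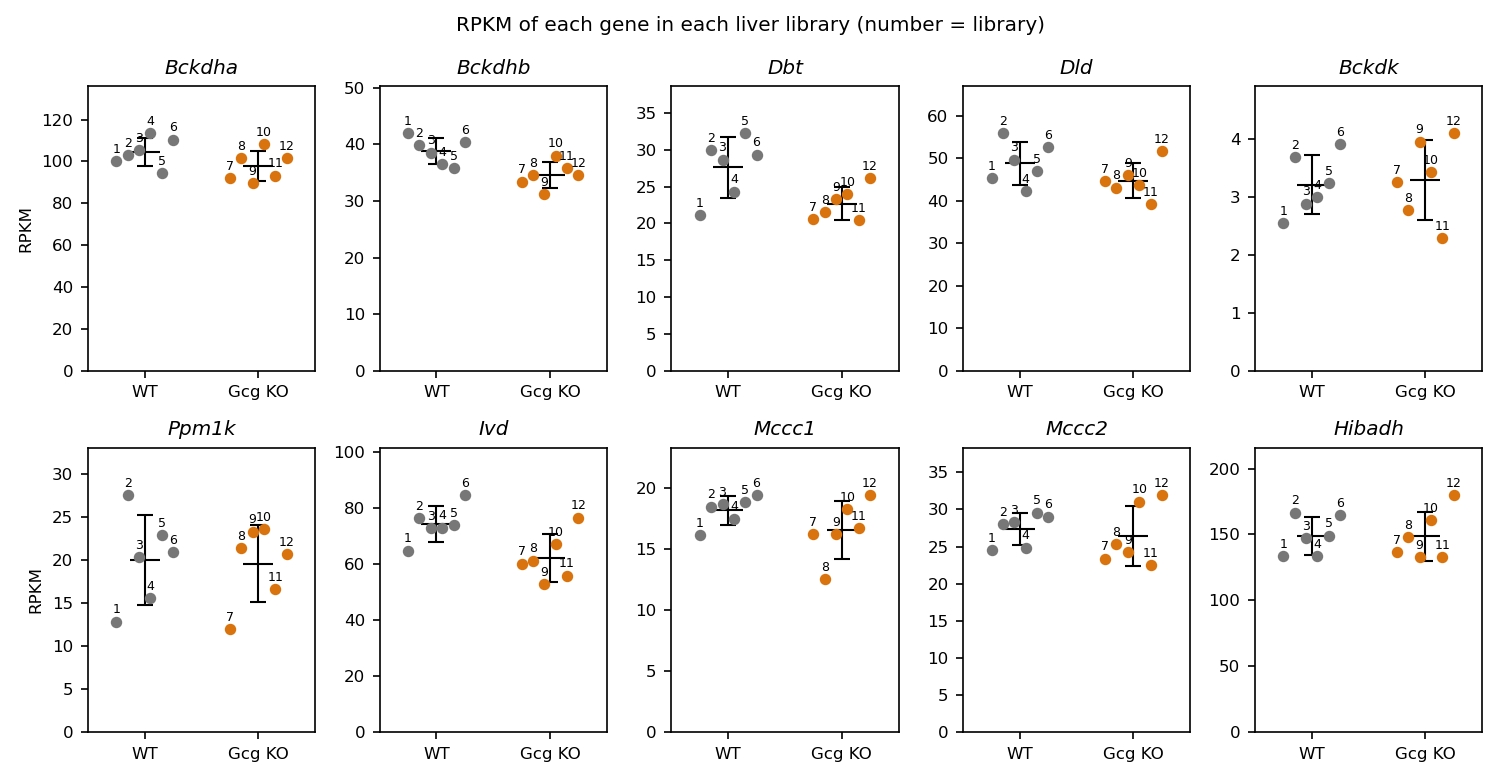
RPKM (y axis, from 0) of each of the 10 genes in each WT (left) and Gcg KO (right) library, with the library number beside each point and the mean ± SD in black. The groups overlap in every panel, and in the Bckdhb panel 5 of 6 Gcg KO points lie below the lowest WT point.

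The kinase and the phosphatase that set the activity of the complex had nearly equal means in both genotypes. Bckdk (Entrez 12041, chr7:127904073-127909664) ranged from 2.54 to 3.90 RPKM with a median of 3.11 in WT and from 2.28 to 4.09 with a median of 3.34 in Gcg KO. Its log2 fold change was 0.03 ± 0.13 (adjusted p = 0.963; -0.014 ± 0.14 without the 3 libraries that stood apart), and the interval of -0.25 to 0.30 allows 1.19-fold lower to 1.24-fold higher expression. Bckdk was the lowest of the 10 genes, at an estimated 86 to 190 reads per library, so that counting error alone could give up to 10.8% in a library.

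Ppm1k (Entrez 243382, chr6:57506502-57535552) varied most from library to library. It ranged from 12.9 to 27.6 RPKM with a median of 20.7 in WT and from 11.99 to 23.6 with a median of 21.1 in Gcg KO, so that the highest library was 2.30 times the lowest, where this ratio was 1.26 for Bckdha. Its coefficient of variation was 26.2% in WT and 23.0% in Gcg KO. The lowest values were in WT 1 and Gcg KO 7, and the log2 fold change was -0.02 ± 0.19 (adjusted p = 0.976) with an interval of -0.44 to 0.39. Without WT 6, Gcg KO 10 and Gcg KO 12 it was -0.11 ± 0.24 (adjusted p = 0.895) with an interval of -0.63 to 0.42.

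Within each library, Ppm1k was above Bckdk per unit of length in 12 of 12 cases. The ratio of their RPKM values was 6.22 ± 1.12 in WT and 6.10 ± 1.53 in Gcg KO (SD, n = 6 each), and it ran from 3.69 to 7.74 over all libraries. The decarboxylase subunits, which are assembled in equal numbers, kept a ratio of Bckdha to Bckdhb of 2.70 ± 0.24 in WT and 2.83 ± 0.13 in Gcg KO. The ratio of Dbt to Bckdk was 8.67 ± 1.04 in WT and 7.06 ± 1.14 in Gcg KO, with ranges of 7.51 to 9.97 and 5.89 to 8.96 that overlapped. These ratios depend on the transcript lengths by which the authors divided, and were described without a test.

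Ivd (Entrez 56357, chr2:118861959-118882909), which encodes the isovaleryl-CoA dehydrogenase of leucine breakdown, was the member whose call turned on the libraries included. It ranged from 64.9 to 84.8 RPKM with a median of 73.6 in WT and from 52.8 to 76.7 with a median of 60.8 in Gcg KO. Of the Gcg KO libraries, 4 lay below the lowest WT library, and the highest were Gcg KO 10 at 67.3 and Gcg KO 12 at 76.7 RPKM. Means were 74.4 ± 6.41 RPKM (WT) and 62.4 ± 8.56 RPKM (Gcg KO), 83.9% of the WT level. The log2 fold change was -0.26 ± 0.09 (adjusted p = 0.155), with an interval that reached a value 1.37-fold lower. Without WT 6, Gcg KO 10 and Gcg KO 12 it was -0.33 ± 0.07 with an adjusted p of 0.0446, past the threshold. That setting was added after the data were seen, and what sets those 3 libraries apart was not tested as a cause.

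Mccc1 (Entrez 72039, chr3:35956292-36000694), the biotin-bearing subunit of methylcrotonyl-CoA carboxylase, ranged from 16.2 to 19.5 RPKM with a median of 18.6 in WT and from 12.6 to 19.4 with a median of 16.5 in Gcg KO. The lowest value, 12.6 RPKM, was in Gcg KO 8, and the log2 fold change was -0.14 ± 0.09 (adjusted p = 0.521). Without the 3 libraries that stood apart it was -0.22 ± 0.09 (adjusted p = 0.306). Mccc2 (Entrez 78038, chr13:99948532-100015639), the other subunit of that enzyme, ranged from 24.5 to 29.6 RPKM with a median of 28.1 in WT and from 22.5 to 31.9 with a median of 24.8 in Gcg KO. The Gcg KO libraries spanned the whole WT range, with Gcg KO 10 at 31.0 and Gcg KO 12 at 31.9 RPKM above every WT library and the other 4 at 22.5 to 25.3 RPKM. The log2 fold change was -0.06 ± 0.09 (adjusted p = 0.835), and without the 3 libraries that stood apart it was -0.17 ± 0.08 (adjusted p = 0.309). The ratio of Mccc2 to Mccc1 was 1.502 ± 0.05 in WT, with a range of 1.42 to 1.56, and 1.60 ± 0.24 in Gcg KO, with a range of 1.35 to 2.02, so that the ratio of the partner subunits spread less among the WT libraries. The highest ratio was in Gcg KO 8, the library with the lowest Mccc1.

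Hibadh (Entrez 58875, chr6:52546230-52640300), the hydroxyisobutyrate dehydrogenase of valine breakdown, was the most abundant of the 10 genes and had nearly the same mean in both genotypes. It ranged from 133 to 167 RPKM with a median of 148 in WT and from 133 to 179.9 with a median of 142 in Gcg KO. Means were 149 ± 14.4 and 149 ± 18.9 RPKM. The log2 fold change was -0.01 ± 0.09 (adjusted p = 0.981), and the interval of -0.20 to 0.18 allows 1.15-fold lower to 1.14-fold higher expression. Without the 3 libraries that stood apart the estimate was -0.08 ± 0.08 (adjusted p = 0.703).

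Ordered by level per unit of length, the genes ran Hibadh, Bckdha, Ivd, Dld, Bckdhb, Mccc2, Dbt, Ppm1k, Mccc1 and Bckdk. The first 5 steps of this order held in 12 of 12 libraries each. Ppm1k was above Mccc1 in 8 of 12 libraries (4 in each genotype), so these neighbours did not differ beyond their spread. Mccc2 was above Dbt in 2 of 6 WT and 6 of 6 Gcg KO libraries, so that the order of this pair was mixed in WT and held throughout in Gcg KO. Dbt was above Ppm1k in 11 of 12 libraries. The widest gap was between Mccc1 and Bckdk, a ratio of 4.12 to 7.33 with a median of 5.19. The aminotransferase Bcat2, which acts before the complex, had 6.51 ± 0.856 RPKM (WT) and 5.89 ± 1.86 RPKM (Gcg KO) (adjusted p = 0.711), and Bckdha was 12.8 to 28.5 times higher in the same library. Bcat1 was at most 0.0419 RPKM (WT) and 0.0093 RPKM (Gcg KO) and was not tested.

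**Figure D2:**
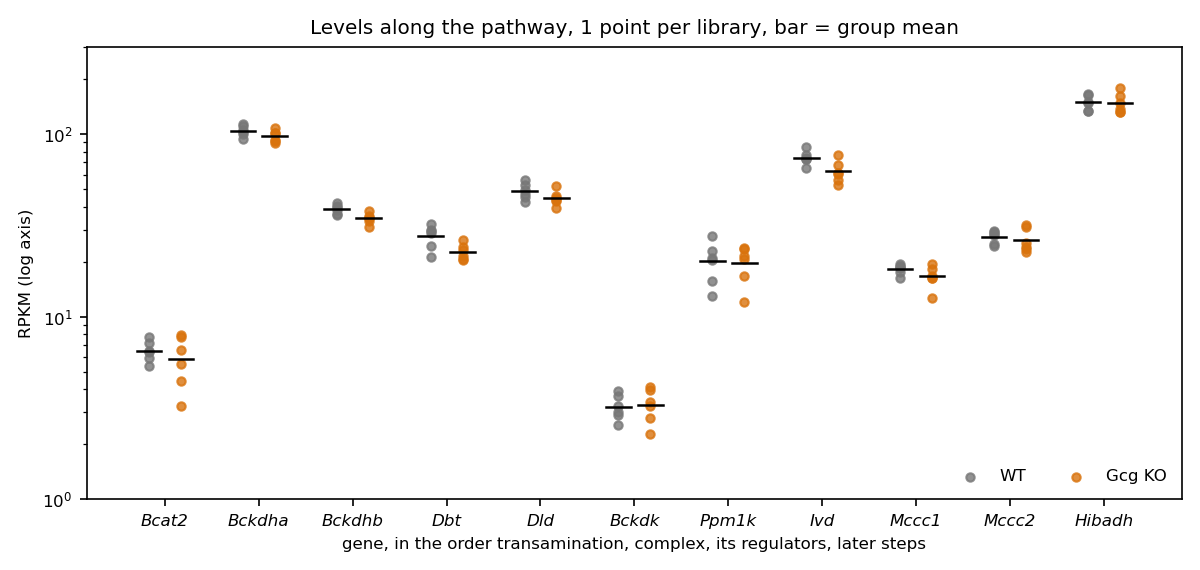
RPKM (log axis) of the aminotransferase Bcat2 and the 10 genes in each WT and Gcg KO library, 1 point per library, with bars at the group means. Bckdk lies between 2.28 and 4.09 RPKM, below the other genes shown except some Bcat2 libraries, and Hibadh lies at 133 RPKM or above.

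The other enzymes of branched-chain amino acid breakdown gave the same count. Of 18 listed genes, 17 were tested (all but Bcat1), and 0 rose and 0 fell, with a median log2 fold change of -0.04. Estimates were below 0 for 9 of the 17, where this held for 5186 of 11347 over all tested genes. Pcca and Pccb, the subunits of the propionyl-CoA carboxylase that takes up carbon from isoleucine and valine, had unadjusted p under 0.05. That is 2 of 17 genes, both with lower estimates. Of all tested genes, 15.7% had such a p in either direction and 6.96% with a lower estimate. Pcca had 30.1 ± 1.99 RPKM (WT) and 27.0 ± 1.68 RPKM (Gcg KO), a log2 fold change of -0.16 ± 0.06 (adjusted p = 0.204). Pccb had 65.5 ± 2.72 and 59.8 ± 2.91 RPKM (adjusted p = 0.224). Mut, the methylmalonyl-CoA mutase after the propionyl step, had 44.9 ± 4.35 and 40.3 ± 3.47 RPKM (adjusted p = 0.358).

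The carriers of these amino acids included genes that passed in both directions. Of 7 listed, 6 were tested (Slc6a15 was too low), 1 rose and 1 fell, with a median of 0.04. Over all tested genes, 1.95% rose and 1.92% fell. Slc43a1, a plasma membrane carrier of large neutral amino acids, ranged from 2.24 to 3.23 RPKM in WT with a median of 2.58 and from 0.393 to 2.61 in Gcg KO with a median of 0.931. It fell by 1.03 ± 0.24 on the log2 scale (adjusted p = 0.0299), with 5 of 6 Gcg KO libraries below the lowest WT library. The call was lost in 10 of 21 alternative settings, among them the omission of WT 1, 3, 4 or 5 or Gcg KO 7, 8, 9 or 10 in turn (adjusted p up to 0.0682) and of the 3 libraries that stood apart (log2 fold change -1.13, adjusted p = 0.0806).

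Slc43a2, its close relative, rose from 1.82 ± 0.192 to 2.61 ± 0.364 RPKM, and its groups did not overlap. The log2 fold change was 0.42 ± 0.09 (adjusted p = 0.0222). It did not pass without WT 1, WT 2 or Gcg KO 12 in turn (adjusted p up to 0.0544) or without the 3 libraries that stood apart (0.34, adjusted p = 0.131). Slc25a44, the mitochondrial carrier of branched-chain amino acids, had 18.3 ± 1.78 and 19.96 ± 1.15 RPKM (adjusted p = 0.416).

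Dld also serves the pyruvate, oxoglutarate and oxoadipate dehydrogenases and the glycine cleavage system, and 0 of the 10 partner genes of those systems passed. Their median log2 fold change was -0.05, and 5 had an unadjusted p under 0.05 (4 of them lower), beside 15.7% of all tested genes. Gldc, the glycine decarboxylase, ranged from 58.7 to 77.4 RPKM in WT and from 44.2 to 57.8 in Gcg KO without overlap, and its log2 fold change of -0.32 ± 0.08 missed the threshold (adjusted p = 0.0507). It passed in 5 of 22 alternative settings, among them the omission of WT 1 or Gcg KO 10 in turn (lowest adjusted p among these omissions 0.0490). The oxoglutarate dehydrogenase genes Ogdh (33.7 ± 1.04 and 30.4 ± 2.36 RPKM, adjusted p = 0.219) and Dlst (63.5 ± 3.86 and 56.1 ± 5.33 RPKM, adjusted p = 0.207) had unadjusted p under 0.05. So did Dhtkd1, which had the lowest estimate among these partners (log2 fold change -0.48 ± 0.18, adjusted p = 0.183). Dlat also had an unadjusted p under 0.05, but with a higher estimate in Gcg KO (0.19 ± 0.08, adjusted p = 0.222).

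Kinases and phosphatases of the pyruvate dehydrogenase complex are the relatives of Bckdk and Ppm1k, and of 7 such genes 5 were tested and 0 passed (median 0.01), with an unadjusted p under 0.05 for 2 (15.7% of all tested genes). Pdk1, the kinase with the smallest p, had 11.6 ± 2.46 RPKM (WT) and 17.2 ± 3.45 RPKM (Gcg KO), a log2 fold change of 0.55 ± 0.15 (adjusted p = 0.0588). Pdk1 passed in 4 of 22 alternative settings, among them the omission of WT 2 or Gcg KO 11 in turn (lowest adjusted p among these omissions 0.0219). Without the 3 libraries that stood apart, the log2 fold change of Pdk1 was 0.44 ± 0.16 (adjusted p = 0.212). Pdk4, the other gene with an unadjusted p under 0.05, had 3.72 ± 1.46 and 6.17 ± 3.18 RPKM (0.61 ± 0.28, adjusted p = 0.302). Pdk2 was 10.5 ± 1.03 times Bckdk in the same WT library and 9.47 ± 2.57 times in Gcg KO.

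Mccc1 carries biotin, and of 7 other genes for biotin carboxylases and biotin handling 1 rose, 0 fell and the median was 0.16. Over all tested genes, 1.95% rose and 1.92% fell. An unadjusted p under 0.05 was found for 4 of the 7 (2 of them lower), beside 15.7% of all tested genes. The 7 include Pcca and Pccb, which were counted above with the branched-chain enzymes. Acaca, the acetyl-CoA carboxylase of fatty acid synthesis, rose from 11.6 ± 1.07 to 16.2 ± 3.15 RPKM, a log2 fold change of 0.45 ± 0.11 (adjusted p = 0.0424). That call was lost in 13 of 22 alternative settings, among them the omission of every single library except WT 6 and Gcg KO 11 (adjusted p up to 0.0932). Pcx, pyruvate carboxylase, had 105 ± 5.40 and 118 ± 7.48 RPKM (adjusted p = 0.149). The 4 genes of lipoate synthesis and attachment, which supply the cofactor of Dbt, had a median of -0.02, and 0 passed with or without adjustment. Among them Lipt1, a lipoyltransferase, had the smallest p, with 3.83 ± 0.486 and 3.42 ± 0.596 RPKM (adjusted p = 0.579).

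Of 6 transcriptional regulators linked to these genes, 0 passed, with a median of 0.09 and an unadjusted p under 0.05 for 4 (2 of them lower), where 15.7% of all tested genes had one. Klf15, a factor known to induce amino acid breakdown genes, had 75.7 ± 13.8 RPKM (WT) and 54.4 ± 13.04 RPKM (Gcg KO), a log2 fold change of -0.49 ± 0.17 (adjusted p = 0.164). It passed without WT 6 (-0.61, adjusted p = 0.0436) and without the 3 libraries that stood apart (-0.39, adjusted p = 0.0410). Ppargc1a encodes a coactivator that acts on glucose production and mitochondrial genes, and had 2.74 ± 1.42 and 1.07 ± 0.611 RPKM (-1.01 ± 0.28, adjusted p = 0.0638), with a pass at an adjusted p of 0.0279 when WT 6 was left out and of 0.0244 when Gcg KO 7 was left out. Ppara (30.9 ± 4.37 and 36.3 ± 4.27 RPKM, adjusted p = 0.267), Mlxipl (85.1 ± 10.7 and 100.2 ± 13.7 RPKM, adjusted p = 0.304), Nr3c1 (adjusted p = 0.871) and Crebbp (adjusted p = 0.533) had smaller differences relative to their errors.

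The contrast named for these genes was with amino acids degraded mainly in liver. Of 42 tested genes of that list, 26 fell, 0 rose and 16 did not pass, where 1.92% of all tested genes fell and 1.95% rose. Estimates were below 0 for 39 of the 42 (5186 of 11347 over all tested genes). The 42 genes had a median log2 fold change of -0.45 and a range of -3.10 to 0.11. For the 10 genes of branched-chain oxidation the median was -0.11 and the range -0.27 to 0.03. That list was drawn up with results of these samples known, and its direction is not independent evidence.

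The genes of smallest p in it were Oat, Gls2 and Cbs. Oat, ornithine aminotransferase, ranged from 414 to 515 RPKM in WT and from 71.8 to 128 in Gcg KO (log2 fold change -2.37 ± 0.12, adjusted p = 2.3e-07). Gls2, the liver glutaminase, ranged from 159.6 to 188 RPKM in WT and from 26.7 to 53.1 in Gcg KO (-2.31 ± 0.13, adjusted p = 4.3e-07). Cbs, cystathionine beta-synthase, ranged from 224 to 248 RPKM in WT and from 129 to 146 in Gcg KO (-0.78 ± 0.05, adjusted p = 1.1e-06). All 3 had groups that did not overlap, and each fell by more than the -0.49 to which the interval of Dbt, the lowest among the 10 genes, extended.

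**Figure D3:**
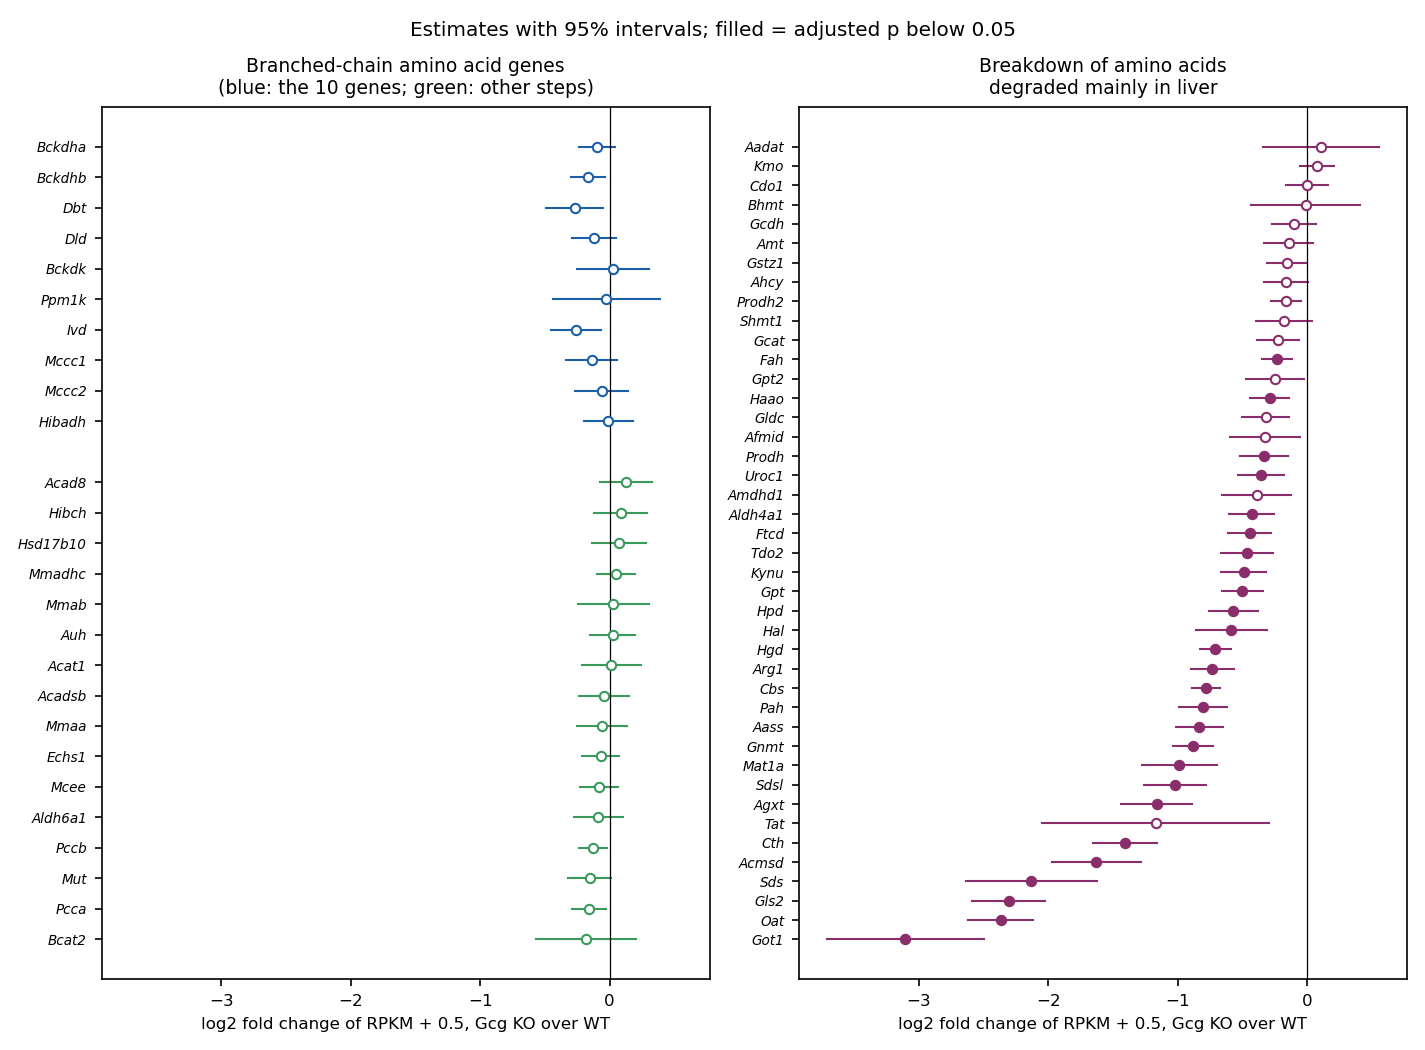
Log2 fold changes of RPKM + 0.5, Gcg KO over WT, with 95% intervals, for the 10 genes (blue) and 16 other branched-chain genes (green) on the left and 42 genes of amino acids degraded mainly in liver on the right. Filled points have an adjusted p under 0.05: 0 of the points on the left and 26 on the right.

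In some libraries most of the 10 genes deviated in the same direction within their genotype, though not every pair of genes varied together. Each value was expressed as a deviation from the mean log2 value of its own genotype. In WT 6 and Gcg KO 12 all 10 genes lay above that mean, against 65.3% and 73.9% of all tested genes in those libraries. In Gcg KO 10, 9 of 10 lay above (62.3% of all tested genes), and in WT 2 also 9 of 10 (53.3%). In WT 1 and WT 4 only 1 of 10 lay above, against 52.2% and 39.9% of all tested genes. In Gcg KO 7 and Gcg KO 11, 2 of 10 did (44.6% and 35.0%). In WT 1, 7 of 10 genes had their lowest WT value. The median deviation of the 10 genes was 0.22 in Gcg KO 12, where that of all tested genes was 0.10, and -0.16 in WT 1, where it was 0.01. The high libraries thus included the 3 that stood apart, with their low neutrophil markers and low Igfbp1, but also WT 2, which did not stand apart. The part of the state of those 3 libraries in the result was not tested.

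**Figure D4:**
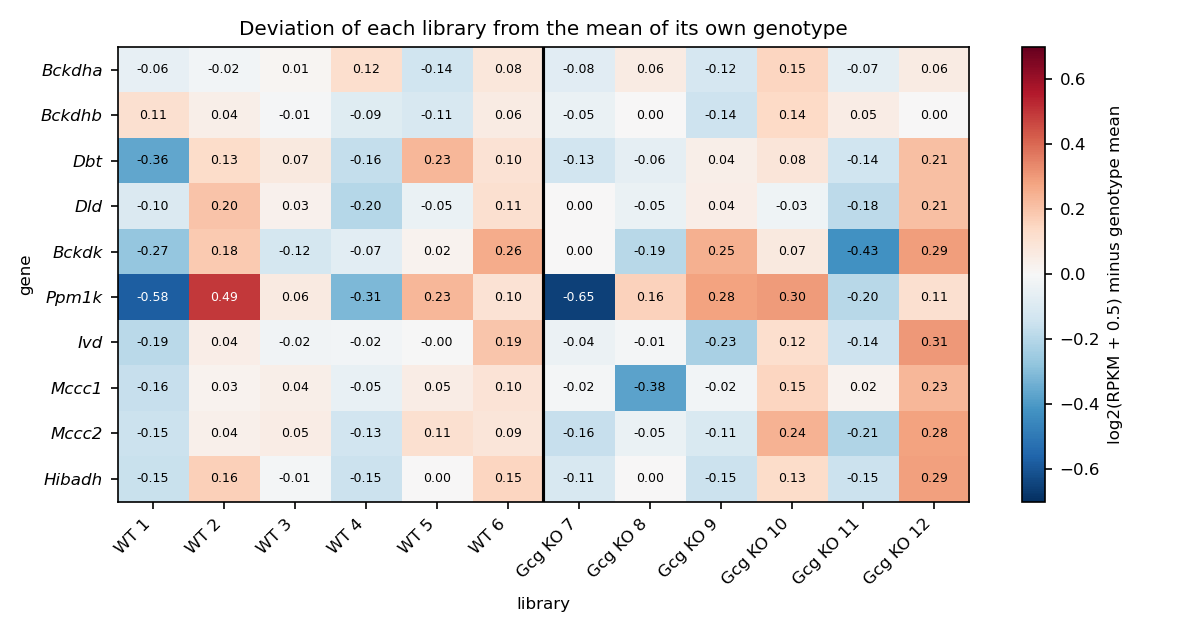
Deviation of log2(RPKM + 0.5) from the mean of the library's own genotype, for the 10 genes (rows) in each library (columns), from blue (below) to red (above). WT 6 and Gcg KO 12 are above the mean for 10 of 10 genes, and WT 1 and WT 4 are above it for 1 of 10.

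The deviations were correlated between genes over the 9 libraries left when WT 6, Gcg KO 10 and Gcg KO 12 were taken out, and over all 12. Over 9 libraries, 30 of the 45 pairs had a Pearson r above 0, with a median of 0.28. Permutation of deviations within genotype gave an unadjusted p under 0.05 for 7 pairs and an adjusted p (over 45 pairs) under 0.05 for 0. Over 12 libraries, 42 of 45 pairs were above 0, the median was 0.55, and 9 pairs had an adjusted p under 0.05 (7 of them for Spearman's rho too). The median over 12 libraries was 0.47 after quantile normalization and 0.31 after median ratio scaling. All genes share the library and its scaling, so a positive r between genes is in part built in. No such count over pairs of other tested genes is given here. The counts therefore do not show that the 10 genes varied together more than other genes did.

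Ivd and Hibadh, of the leucine and valine routes, had the highest r of the 45 pairs over 12 libraries, but not over 9, where Dbt and Mccc2 had the highest. Over 9 libraries r was 0.71 (permutation p = 0.0336, adjusted p = 0.263) and rho was 0.82 (permutation p = 0.0062, adjusted p = 0.279). Without the 2 libraries farthest from the median, WT 1 and Gcg KO 9, r was 0.70. Over 12 libraries r was 0.91 (permutation, adjusted p = 0.0018) and rho 0.93 (permutation, adjusted p = 0.00225), and r was 0.82 without WT 6 and Gcg KO 12. The value was 0.86 after quantile normalization and 0.85 after median ratio scaling over the same 12 libraries. Over 12 libraries, 99.9% of all tested genes had a lower r with Ivd than Hibadh did.

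The r of Mccc2 with either gene was lower over 9 libraries than over 12. With Hibadh its r was 0.76 over 9 libraries (permutation p = 0.0541, adjusted p = 0.271) and 0.89 over 12 (permutation, adjusted p = 0.0121; rho 0.78, adjusted p = 0.0294). With Ivd it was 0.53 over 9 libraries (permutation p = 0.160) and 0.83 over 12 (permutation, adjusted p = 0.0221; rho 0.82, adjusted p = 0.0296). Mccc2 and its partner Mccc1 had an r of 0.05 over 9 libraries and 0.61 over 12 (permutation, adjusted p = 0.179). Their rho was 0.78 over 12 libraries (permutation, adjusted p = 0.0387) and -0.03 over 9 (permutation p = 0.935). Dbt and Mccc2 had an r of 0.89 over 9 libraries (permutation p = 0.00716, adjusted p = 0.161) and 0.79 over 12 (permutation, adjusted p = 0.00427; rho 0.85, adjusted p = 0.0027).

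Within the complex and its regulators the relations were uneven. Dbt and Ppm1k had an r of 0.83 over 9 libraries (permutation p = 0.00706, adjusted p = 0.161) and 0.81 over 12 (permutation, adjusted p = 0.0221), where rho was 0.69 and did not pass (permutation, adjusted p = 0.069). Dld and Bckdk had an r of 0.72 over 9 libraries (permutation p = 0.0231, adjusted p = 0.263) and 0.80 over 12 (permutation, adjusted p = 0.0221; rho 0.80, adjusted p = 0.0294). Bckdha and Bckdhb, the subunits of the decarboxylase, had an r of 0.15 over 9 libraries and 0.46 over 12 (permutation, adjusted p = 0.249). The lowest r was that of Bckdhb with Bckdk, at -0.24 over 12 libraries, -0.66 over 9 (permutation p = 0.0682, adjusted p = 0.307) and -0.77 over 12 after median ratio scaling. Bckdhb with Dbt was at -0.23 over 12 libraries, -0.57 over 9 (permutation p = 0.162, adjusted p = 0.429) and -0.51 after median ratio scaling.

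**Figure D5:**
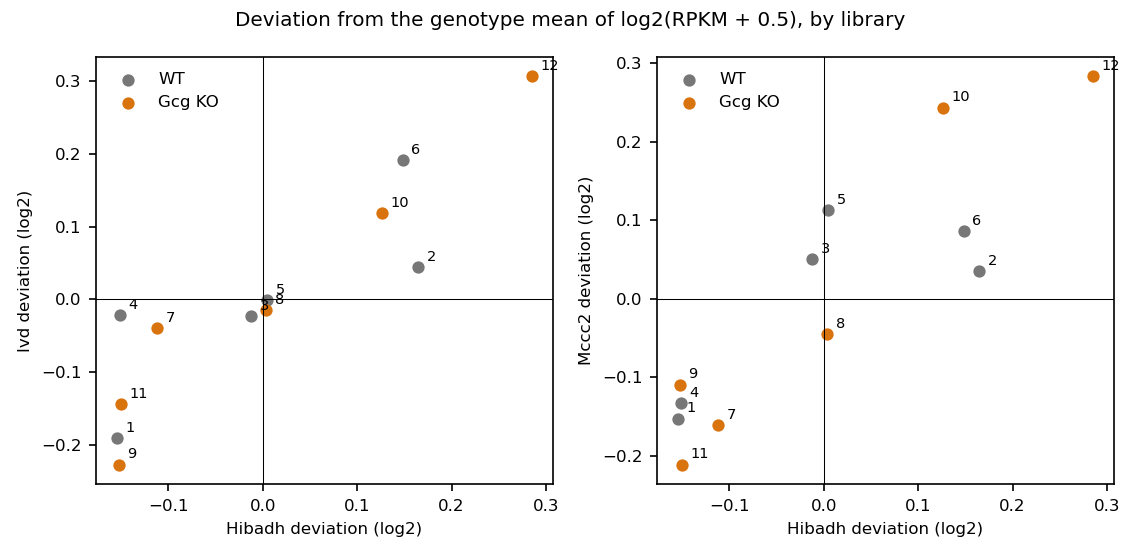
Deviation of Ivd (left) and Mccc2 (right) against that of Hibadh, each as log2(RPKM + 0.5) minus the mean of the library's genotype, 1 numbered point per WT or Gcg KO library. Over 12 libraries r was 0.91 for Ivd and 0.89 for Mccc2, and libraries 6, 10 and 12 lie in the upper right of the left panel.

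Since no gene of the 10 passed the test, likeness to other genes was measured for Bckdk and Bckdha, as the root mean square difference of centred log2 values over 12 libraries. The genes closest to Bckdk were Zbtb44 (0.0786), Tmtc4 (0.0843) and Ube2d1 (0.0956). Those closest to Bckdha were Sgta (0.0430), Ndufs7 (0.0486) and Esd (0.0516). Esd, an esterase that acts on formylglutathione, had 148 ± 10.3 RPKM (WT) and 138 ± 7.46 RPKM (Gcg KO), and Ndufs7, a subunit of respiratory complex I, had 57.8 ± 4.46 and 55.2 ± 4.49 RPKM.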

How the data were processed

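The authors deposited RPKM values (read counts scaled to transcript length and sequencing depth) for 24475 genes in 12 liver libraries, per the table's name and values, which are not whole numbers and sum to 592947 to 624701 per library. The libraries were strand-specific and made from polyadenylated RNA, per the labels' protocols. CASAVA 1.8.2, FastQC and the build GRCm38 are named in the submitters' processing notes. For the aligner, the counter and the annotation, names were not given in the sources used here. Of the gene identifiers, 24375 (99.6%) matched a RefSeq table of GRCm38.p6, which gave coordinates counted from 1. Depth was estimated from the smallest step of RPKM times transcript length, taken as 1 read.

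Genes were kept if their mean RPKM reached 0.5. The two-sided test was limma 3.58.1 in R 4.3.3 on log2(RPKM + 0.5), without covariates and with the variance trend, and its p-values were adjusted by Benjamini-Hochberg over 11347 genes (calls at 0.05). Adjusted p-values printed for genes come from it, except beside a named alternative or correlation. Fold changes are on that scale, which understates changes of low genes. Correlations of deviations used 100000 permutations within genotype, with adjustment over 45 pairs. The fit was tested on simulated data. Alternatives were other pseudocounts (0.1 and 1), filters (none, and a mean RPKM of at least 2), scalings and limma settings, the omission of each library in turn, and the omission of the 3 that stood apart, added after the data were seen.

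The genes and lists were chosen with earlier results of these data known. Some lists share genes, and 2 genes, Gldc among them, counted both among the Dld partners and among genes of amino acids degraded mainly in liver. Named genes were the 10 members, those past the threshold or of smallest p in each related list, the 3 of smallest p among genes of amino acids degraded mainly in liver, the regulators, and the genes most like Bckdk and Bckdha. Others (Bcat1, Bcat2, Pccb, Mut, Slc25a44, Ogdh, Dlst, Dhtkd1, Dlat, Pdk2, Pdk4, Pcx and the marker genes) were chosen after their values were seen. Values of 1 gene of the other branched-chain enzymes are not reported here.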

Additional observations from a re-analysis of the deposited data

How the results depend on the processing

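Over 22 alternatives, 0 of the 10 genes passed the threshold except Ivd, which passed without the 3 libraries that stood apart (1 gene lower). Small estimates changed sign without passing: Bckdk was -0.0014 after quantile normalization and -0.014 without the 3 libraries, and -0.034 to 0.11 over the omission of each library in turn; Hibadh was 0.049 after quantile normalization and -0.066 to 0.024 over these omissions; Ppm1k was -0.14 to 0.11; and Nr3c1 was -0.033 without the 3 libraries. Over all genes, omitting each library in turn gave 136 to 261 higher and 141 to 210 lower calls, with the lowest counts without WT 3 (136 and 141) and 142 higher without Gcg KO 9. Without the 3 libraries 128 genes were higher. For the carriers the count lower was 0 with no filter and without the 3 libraries, where the count higher was also 0. Both were 0 to 1 over single omissions. The count lower was also 0 at a mean RPKM of at least 2, a filter that removed Slc43a1 before the test. For the Dld partners it was 1 (Gldc) at a mean RPKM of at least 2, after median ratio scaling and with robust shrinkage, and 0 to 1 over single omissions. For the pyruvate dehydrogenase kinases and phosphatases it was 1 higher (Pdk1) after quantile normalization and median ratio scaling, and 0 to 1 over single omissions. For biotin genes the count higher was 0 with no filter, without a trend and without the 3 libraries, 2 after quantile normalization and 0 to 1 over single omissions. For the regulators the count lower was 1 without the 3 libraries and 0 to 2 over single omissions. The cause of these moves was not tested. No paired analysis was possible because the groups share no replicate number. The estimated depth limits Bckdk most.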
